A study of Mus musculus with 23 samples.

Results

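The 157 genes described here are the solute carrier genes with an appreciable transcript level in control mouse embryos at the time of zygotic genome activation. They were chosen by their gene symbol (Slc, a family number, the letter a and a member number) and by a measured level: a mean of at least 2 FPKM, summed over the transcripts of a gene, in siCtrl zygotes or siCtrl 2-cell embryos. FPKM, the number of fragments scaled by transcript length and by library size, is a level per length and per library, so genes may be compared with each other on it. Of 22619 named genes in the files, 341 had a matching symbol, 159 reached the limit, and the glucose transporter genes Slc2a1 and Slc2a3 were excepted by name. Since siCtrl levels chose the genes, those levels and the siCtrl stage difference are given below as a description without a test.

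Solute carriers are membrane proteins that move amino acids, sugars, vitamins, metals, inorganic ions, nucleosides and metabolites across the plasma membrane or the membranes of organelles. The SLC25 family sits mainly in the inner mitochondrial membrane, and the SLC30 and SLC39 families move zinc out of and into the cytosol. Cleavage-stage mouse embryos are known for using pyruvate and lactate before glucose, for taking up glycine to control cell volume, and for large movements of zinc around fertilization. At the zygote stage most mRNA comes from the oocyte, and by the late 2-cell stage much of it has been degraded and replaced by embryonic transcripts.

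The study injected siRNAs against Etv5 (an ETS transcription factor), Mlx (an E-box binding partner of the Mondo proteins) or Rfx1 (a winged-helix factor), or a control siRNA, into germinal vesicle oocytes of B6D2F1 (C57BL/6xDBA/2) females, matured the oocytes in vitro and fertilized them by sperm injection. Late zygotes and late 2-cell embryos were taken, labelled 14 and 36 h after fertilization. The paper gives later times for both stages, and the labels name in vitro fertilization where the paper describes sperm injection. The groups used are siEtv5 2-cell embryos (2 libraries) and siEtv5 zygotes, siMlx 2-cell embryos and zygotes, siRfx1 2-cell embryos and zygotes, and siCtrl 2-cell embryos and zygotes (3 libraries each), 23 libraries in 8 groups. All groups went through the same oocyte injection and in vitro maturation, and several siRNAs against a gene were injected as a mixture. The paper states that the sequencing experiments were repeated for each group. The sources do not say whether libraries of a group came from separate collections of embryos, so the spread behind each p-value may be technical.

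Aligned depth was 119 to 174 Mb in siRfx1 2-cell libraries, which stand apart, and 404 to 991 Mb in the others. Rfx1 was lower in siRfx1 zygotes (0.443, 0.149 and 0.481 FPKM) than in siCtrl zygotes (3.05, 3.26 and 3.52 FPKM), and also at the 2-cell stage, but it was low under siMlx too, with 1.29, 0.863 and 1.33 FPKM in siMlx zygotes and 2.88, 2.82 and 1.85 FPKM in siMlx 2-cell embryos, against 10.7, 8.68 and 8.12 FPKM in siCtrl 2-cell embryos. Etv5 had 8.98 and 5.55 FPKM in siEtv5 2-cell embryos, against 49.3, 43.7 and 44.6 FPKM in siCtrl 2-cell embryos, and was also low in siRfx1 2-cell embryos, with 9.19, 6.73 and 12.6 FPKM. Mlx had 0.469, 0 and 0.442 FPKM in siMlx zygotes, against 1.84, 3.63 and 4.25 FPKM in siCtrl zygotes, but 0.836, 2.26 and 4.05 FPKM in the libraries labelled siMlx 2-cell, which overlaps 2.42, 4.42 and 3.74 FPKM in siCtrl 2-cell embryos. Of the marker genes, 8 oocyte genes summed to 144 to 786 FPKM at the 2-cell stage and 2044 to 4213 FPKM in zygotes, and 6 genes of the 2-cell stage to 63.7 to 1103 FPKM at the 2-cell stage and 20.1 to 74.3 FPKM in zygotes. The sums of the oocyte genes did not overlap between stages. Single genes need not separate them: in siEtv5, Oosp1 had means of 288 FPKM in 2-cell embryos and 285 FPKM in zygotes. Zp3 had 22.7 and 19.3 FPKM there, and the other oocyte genes were lower in siEtv5 2-cell embryos. The sums of the 2-cell genes overlapped in siMlx, with 63.7 to 247 FPKM in siMlx 2-cell embryos and 35.2 to 74.3 FPKM in siMlx zygotes. Of 10 cumulus cell genes at most 4 reached 1 FPKM in a group and Inhba was at 0 in all libraries. Their sums were 17.2 to 57.2 FPKM at the 2-cell stage, where Nr5a2 had group means of 23.5 to 32.7 FPKM. In zygotes the sums were 6.45 to 17.2 FPKM, with Cyp19a1 at means of 3.92 to 7.07 FPKM. Of 6 sperm genes at most 3 reached 1 FPKM, with Prm1 and Tnp2 at 0 in all. Prm2 had group means of 21.995 to 28.4 FPKM in zygotes and at most 1.04 FPKM in 2-cell embryos. The sums of the sperm genes were 9.88 to 35.1 FPKM in zygotes and 0 to 14.03 FPKM at the 2-cell stage. The part of these markers and of depth in the results below was not tested.

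Among the 157 genes, 76 reached 2 FPKM in siCtrl embryos at both stages, 62 only in 2-cell embryos and 19 only in zygotes. They belong to 42 families, with 37 genes of the mitochondrial SLC25 family, and 31 have several annotated transcripts. The other groups were not used in the choice, but stage differences they share with siCtrl carry its imbalance of 62 and 19 genes into them. There, 130 reached 2 FPKM in siEtv5 2-cell embryos, 109 in siMlx 2-cell embryos and 100 in siRfx1 2-cell embryos, against 91, 86 and 91 in zygotes of the same siRNAs. The median level over the genes was 8.57 FPKM in siEtv5 2-cell embryos and 3.10 FPKM in siEtv5 zygotes, 5.6 and 2.44 FPKM in siMlx 2-cell embryos and zygotes, 4.4 and 2.99 FPKM in siRfx1 2-cell embryos and zygotes, and 8.14 and 3.42 FPKM in siCtrl 2-cell embryos and zygotes. As a share of all FPKM of a library the genes held 0.689 to 0.98% at the 2-cell stage and 0.357 to 0.727% in zygotes, and no 2-cell library of an siRNA lay below a zygote library of the same siRNA. At the limit, Slc39a8 (2.15 FPKM), Slc38a3 (2.19) and Slc41a2 (2.23) were the nearest members, and Slc39a2 (1.99), Slc17a9 (1.91) and Slc23a3 (1.87) the nearest left out. Each of these is the higher of the siCtrl stage means.

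The most abundant solute carrier transcripts of siCtrl 2-cell embryos were Slc25a44 (mean 230.7 FPKM), which carries branched-chain amino acids into mitochondria, Slc34a2 (218 FPKM), a sodium phosphate cotransporter, and Slc25a5 (186 FPKM), an ADP/ATP carrier of which the genome holds processed copies that can share reads. Slc7a6os, which is named after a carrier but is not one, had 159 FPKM. Slc16a6, Slc45a3 and Slc19a3 had 139, 137 and 129 FPKM, and the mitochondrial phosphate carrier Slc25a3, the mitochondrial glycine carrier Slc25a38 and the scaffold protein gene Slc9a3r1 had 108, 105 and 82.1 FPKM. In siCtrl zygotes the order was led by Slc45a3 (372 FPKM), a sugar transporter by family, and by Slc30a3 (186 FPKM), which loads zinc into synaptic vesicles of neurons. Slc25a5 had 144 FPKM in siCtrl zygotes, Slc25a48, a mitochondrial carrier linked to choline, 108 FPKM, Slc7a6os 108 FPKM, Slc4a1ap (kanadaptin, not a carrier) 103 FPKM, and the zinc importers Slc39a6 and Slc39a10 90.02 and 64.6 FPKM. Slc35a4 of the nucleotide sugar family and the ornithine carrier Slc25a15 complete the first 10 with 71.9 and 61.9 FPKM. Slc25a5, Slc7a6os and Slc45a3 are in both lists.

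The stage comparison asks which carriers are gained and lost between the late zygote and the late 2-cell embryo. It was tested in siEtv5, siMlx and siRfx1 embryos, whose libraries did not choose the genes and which share no library with each other. The choice still bears on it, since 62 genes entered only through siCtrl 2-cell embryos and 19 only through siCtrl zygotes. Stage differences shared with siCtrl carry that imbalance into the counts and medians below, so nothing is read from a surplus of rises. Of the 157 genes, 63 were higher and 20 lower in 2-cell embryos than in zygotes of siEtv5 (144 tested), 58 higher and 36 lower in siMlx (141 tested), and 29 higher and 36 lower in siRfx1 (130 tested). A call needed an adjusted p under 0.05 (limma, Benjamini-Hochberg over all genes tested) and a fold above 2 on log2(rescaled FPKM + 1), a scale that understates the change of low genes. Over all genes tested, 37.9% were called higher and 23% lower in siEtv5, 35.4% and 29.1% in siMlx, and 18.7% and 29.7% in siRfx1. The median stage difference of the solute carrier genes was 0.62 in siEtv5, 0.53 in siMlx and 0.05 in siRfx1 on the log2 scale, beside 0.40, 0.20 and -0.23 over all genes. Levels are relative to the rest of a library, so fewer transcripts per embryo and a smaller share of a changed total cannot be told apart.

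The tests had a minimum of 1 rescaled FPKM on average, and some genes passed it through one stage only. In siEtv5, 99 of the tested genes had at least 1 FPKM at both stages, 36 only at the 2-cell stage and 9 only in zygotes. The same counts were 82, 39 and 20 in siMlx and 86, 24 and 20 in siRfx1, and 13, 16 and 27 of the 157 genes were not tested at all. Without siEtv5 2-cell replicate 1, a single library of that group remained and 55 genes were called in place of 83. Without siRfx1 zygote replicate 2 or 3, 43 genes were called in place of 65.

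Of the 63 genes higher in siEtv5 2-cell embryos and the 58 higher in siMlx 2-cell embryos, 48 were the same, 76.2% of the siEtv5 list and 82.8% of the siMlx list. For lower genes 19 were shared, 95% of the 20 in siEtv5 and 52.8% of the 36 in siMlx. Over all genes tested the shared part was 72.6% and 81.7% of the higher lists and 80.3% and 66.4% of the lower ones. Across all 3 siRNAs 28 solute carrier genes were called higher and 15 lower, of 130 to 144 tested. Over all genes these were 1566 and 1575, of 10096 to 10887 tested. No solute carrier gene was called in opposite directions in siEtv5 and siMlx, and such calls were not counted over all genes. Of 137 genes tested in both, 67 were called in both, 35 in 1 of them and 35 in neither, and 17 had stage differences of opposite sign. These were not counted over all genes either. Neither these counts nor the lack of opposite calls is read as particular to solute carrier genes.

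**Figure D1:**
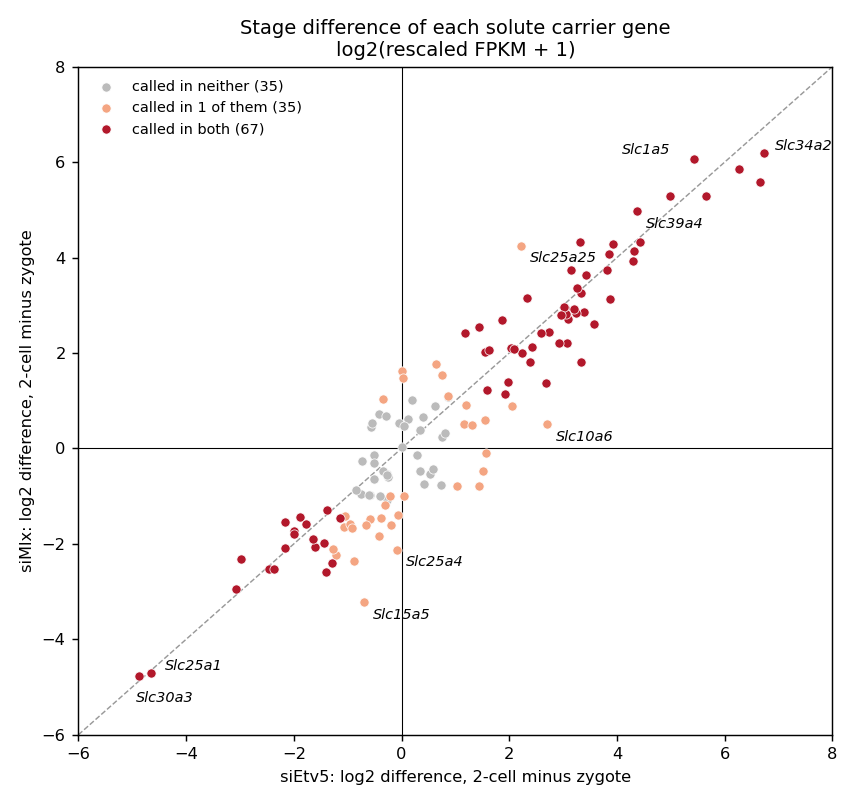
Stage difference (2-cell minus zygote, log2(rescaled FPKM + 1)) of 137 solute carrier genes in siEtv5 embryos (x axis) and siMlx embryos (y axis), each point a gene, coloured by whether it was called in both, in 1 or in neither, with the line of equal differences dashed. The 67 genes called in both lie along the line, from Slc30a3 and Slc25a1 near -5 to Slc34a2 above 6, and Slc10a6 lies well below it.

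By the average of the siEtv5 and siMlx differences, Slc34a2 and Slc16a6 had the largest rises. Like most of the large rises named below, they averaged under 1 FPKM in siEtv5 and siMlx zygotes and passed the minimum through 2-cell embryos only. Slc25a1, among the falls, passed it through zygotes only. For such a gene, passing the minimum already implies a difference between the stages. In siMlx alone Slc1a5 (6.06) and Slc19a3 (5.86) were above Slc16a6 (5.58), and in siRfx1 Slc12a2 (4.68), Slc19a3 (4.66), Slc30a1 (4.46) and Slc1a5 (4.42) were above it (4.12), all on the log2 scale. Slc34a2 had 217 and 219 FPKM in siEtv5 2-cell embryos, against 0.982, 0.572 and 0.825 FPKM in siEtv5 zygotes, a log2 difference of 6.73 ± 0.28 (SE, limma adjusted p = 5.31e-05). In siMlx it had 83.4, 167 and 231 FPKM in 2-cell embryos, against 0.923, 0.699 and 0.477 FPKM in zygotes, and in siRfx1 191, 138 and 261 FPKM in 2-cell embryos, against 0.282, 0 and 0.429 FPKM in zygotes. No 2-cell library came near a zygote library, and siCtrl embryos had 208, 223 and 224 FPKM in 2-cell embryos and 4.11, 0.373 and 0.901 FPKM in zygotes. Slc34a2 lies on chr5:53440592-53462902 (mm9, plus strand).

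Slc16a6 belongs to the monocarboxylate transporter family and exports ketone bodies from liver cells in zebrafish. It had 150.2 and 126 FPKM in siEtv5 2-cell embryos, against 0.8003, 0 and 0 FPKM in siEtv5 zygotes (6.66 ± 0.37 log2, adjusted p = 6.94e-05, limma). In siMlx the values were 40.04, 81.8 and 123 FPKM in 2-cell embryos, against 0.212, 0.263 and 0.501 FPKM in zygotes. In siRfx1 they were 12.7, 38.7 and 58.2 FPKM in 2-cell embryos, each below both siEtv5 2-cell values, against 0.485, 0.354 and 1.15 FPKM in zygotes. Its exons overlap those of Arsg on the other strand, and without strand information the reads of these genes cannot be separated.

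Carriers of vitamins were among the largest rises. Slc19a3, a thiamine transporter, had 108 and 123 FPKM in siEtv5 2-cell embryos, against 0, 0.802 and 0.227 FPKM in siEtv5 zygotes (6.27 ± 0.35 log2, adjusted p = 6.94e-05, limma). It had 35.1, 96.6 and 108 FPKM in siMlx 2-cell embryos, against 0, 0.245 and 0 FPKM in siMlx zygotes, and 21.04, 58.9 and 38.1 FPKM in siRfx1 2-cell embryos, against 0, 0.276 and 0.872 FPKM in siRfx1 zygotes. Slc5a6, the sodium-dependent carrier of biotin, pantothenate and lipoate, had 98.1 and 95.8 FPKM in siEtv5 2-cell embryos, against 1.19, 0.776 and 0.250 FPKM in siEtv5 zygotes (5.66 ± 0.33 log2, adjusted p = 7.00e-05, limma). Its 2-cell level was uneven elsewhere, 301, 34.8 and 11.6 FPKM in siRfx1 and 78.3, 23.8 and 86.7 FPKM in siCtrl, and its exons overlap Atraid on the other strand. In siRfx1 the rise of Slc5a6 was called over all libraries but not without any single siRfx1 zygote library (adjusted p = 0.0657 to 0.0701).

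Of the SLC1 amino acid carriers, Slc1a5 and Slc1a1 were near 0 in zygotes. Slc1a5, a neutral amino acid exchanger that takes up glutamine, had 53.0 and 42.2 FPKM in siEtv5 2-cell embryos and was listed at 0 in all 3 siEtv5 zygote libraries. In siMlx it had 135, 49.9 and 91.1 FPKM in 2-cell embryos, against 0.390, 0 and 0 FPKM in zygotes (6.06 ± 0.46 log2, adjusted p = 1.72e-05, limma). Slc1a1, a high-affinity glutamate and aspartate transporter, had 24.3 and 29.7 FPKM in siEtv5 2-cell embryos, against 0.272, 0.286 and 0.145 FPKM in siEtv5 zygotes (4.32 ± 0.26 log2, adjusted p = 8.16e-05, limma). Both were called higher in siRfx1 as well, with 34.3, 29.1 and 21.05 FPKM for Slc1a5 and 27.7, 14.3 and 7.53 FPKM for Slc1a1 in siRfx1 2-cell embryos.

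The other large rises were of varied substrates. Slc25a36, a mitochondrial pyrimidine nucleotide carrier, had 63.2 and 65.8 FPKM in siEtv5 2-cell embryos, against 0, 0.660 and 2.25 FPKM in siEtv5 zygotes (4.99 ± 0.54 log2), and 177, 106 and 73.1 FPKM in siMlx 2-cell embryos, against 0.903, 1.94 and 1.18 FPKM in siMlx zygotes (5.30 ± 0.47 log2). Slc12a2, the sodium potassium chloride cotransporter, had 53.3 and 60.3 FPKM in siEtv5 2-cell embryos, against 1.18, 2.06 and 0.791 FPKM in siEtv5 zygotes (4.44 ± 0.33 log2), and 56.8, 50.4 and 138 FPKM in siRfx1 2-cell embryos, against 1.75, 1.58 and 1.26 FPKM in siRfx1 zygotes. Slc4a11, a proton-conducting relative of the bicarbonate transporters, had 22.3 and 19.9 FPKM in siEtv5 2-cell embryos, 16.1, 16.6 and 16.7 FPKM in siMlx 2-cell embryos and 12.2, 28.02 and 3.80 FPKM in siRfx1 2-cell embryos, and was listed at 0 in every zygote library of these siRNAs. All 3 genes were called higher in siEtv5, siMlx and siRfx1 alike (adjusted p at most 0.00588, limma).

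**Figure D2:**
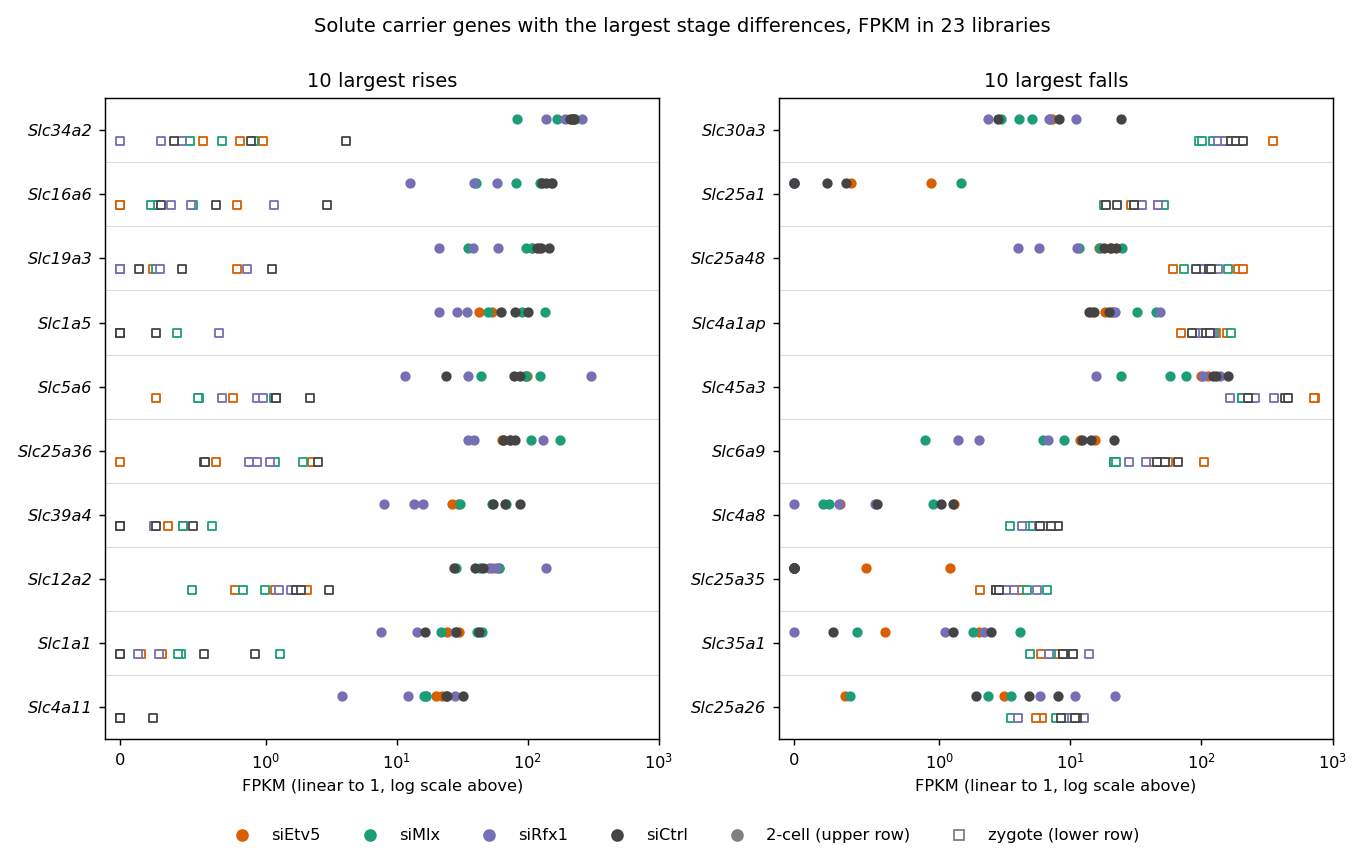
FPKM as deposited (x axis, linear up to 1 and on a log scale above) in each of 23 libraries for the 10 solute carrier genes with the largest rises and the 10 with the largest falls in siEtv5 and siMlx embryos; filled circles are 2-cell libraries, open squares zygote libraries, colours the siRNA. For the rises no 2-cell library overlaps a zygote library, while Slc45a3 and Slc25a26 come close to or into the zygote range.

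Falls were led by Slc30a3 and Slc25a1. Slc30a3 had 6.95 and 7.29 FPKM in siEtv5 2-cell embryos, against 354, 146 and 152 FPKM in siEtv5 zygotes (-4.87 ± 0.41 log2, adjusted p = 1.70e-04, limma). In siMlx it had 2.93, 5.08 and 4.07 FPKM in 2-cell embryos, against 122, 95.4 and 101 FPKM in zygotes (-4.78 ± 0.28 log2), and in siRfx1 2.33, 6.81 and 11.03 FPKM in 2-cell embryos, against 133, 152 and 196 FPKM in zygotes (-4.77 ± 0.51 log2). Every 2-cell library was below every zygote library. Slc30a3 and the rising Slc5a6 are neighbours on chromosome 5, with 37182 bp between them in mm9, and moved in opposite directions.

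Slc25a1, the mitochondrial citrate carrier that feeds cytosolic acetyl-CoA, had 0.392 and 0.941 FPKM in siEtv5 2-cell embryos, against 34.4, 28.9 and 46.9 FPKM in siEtv5 zygotes (-4.65 ± 0.36 log2, adjusted p = 1.35e-04, limma). It had 1.46, 0 and 0 FPKM in siMlx 2-cell embryos, against 30.5, 52.2 and 18.04 FPKM in siMlx zygotes (-4.71 ± 0.51 log2). In siRfx1 it was listed at 0 in all 3 2-cell libraries, against 46.5, 31.3 and 35.2 FPKM in zygotes. The siCtrl values were of the same kind, 0, 0.229 and 0.359 FPKM in 2-cell embryos and 18.5, 22.8 and 30.4 FPKM in zygotes. Slc25a1 lies on chr16:17925304-17928312 (mm9, minus strand).

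Slc25a48, Slc4a1ap and Slc45a3 fell from among the most abundant zygote transcripts. Slc25a48 had 20.2 and 16.6 FPKM in siEtv5 2-cell embryos, against 191, 60.4 and 209 FPKM in siEtv5 zygotes (-3.07 ± 0.57 log2), and 24.6, 16.8 and 11.6 FPKM in siMlx 2-cell embryos, against 101, 159.8 and 73.4 FPKM in siMlx zygotes (-2.95 ± 0.47 log2). Slc4a1ap fell by 2.97 on the log2 scale in siEtv5 and by 2.31 in siMlx. Slc45a3 had 24.4, 57.7 and 76.3 FPKM in siMlx 2-cell embryos, against 233, 205 and 205 FPKM in siMlx zygotes (-2.53 ± 0.36 log2, adjusted p = 3.69e-04, limma), and 98.9 and 112 FPKM in siEtv5 2-cell embryos, against 731, 213 and 726 FPKM in siEtv5 zygotes. Its difference of -2.23 in siRfx1 did not pass the test (adjusted p = 0.0608) but did without siRfx1 2-cell replicate 1 (-1.14, adjusted p = 0.0377) or replicate 2 (-2.73, adjusted p = 0.0383), and with the replicate block (adjusted p = 0.0282). In siEtv5 the calls of Slc25a48 and Slc45a3 were lost without either 2-cell library (adjusted p = 0.0841 and 0.156 without replicate 1, 0.0974 and 0.135 without replicate 2), and that of Slc4a1ap without replicate 1 (adjusted p = 0.0511).

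Slc6a9, the glycine transporter GLYT1 known for cell volume control in early embryos, had 15.3 and 11.9 FPKM in siEtv5 2-cell embryos, against 105, 40.6 and 55.7 FPKM in siEtv5 zygotes (-2.38 ± 0.42 log2). In siMlx it had 0.900, 6.19 and 8.87 FPKM in 2-cell embryos, against 21.4, 21.7 and 22.4 FPKM in zygotes (-2.52 ± 0.50 log2), and in siRfx1 2.01, 6.75 and 1.39 FPKM, against 27.9, 37.6 and 48.97 FPKM (-3.52 ± 0.51 log2). The fall was thus called under every siRNA tested, though in siEtv5 not without 2-cell replicate 1 (adjusted p = 0.0569) or replicate 2 (adjusted p = 0.0721). Its exons overlap Ccdc24 on the other strand.

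Slc4a8, a sodium-driven chloride bicarbonate exchanger, and Slc35a1, the Golgi carrier of CMP-sialic acid, were low genes that fell. Slc4a8 had 0.960, 0.239 and 0.200 FPKM in siMlx 2-cell embryos, against 4.71, 3.46 and 5.17 FPKM in siMlx zygotes (-2.09 ± 0.34 log2). Slc35a1 had 1.81, 0.437 and 4.12 FPKM in siMlx 2-cell embryos, against 7.05, 9.30 and 4.95 FPKM in siMlx zygotes (-1.80 ± 0.45 log2). Both were called lower in all 3 siRNAs. Slc25a35, which overlaps Rangrf on the other strand, was listed at 0 in all siMlx, siRfx1 and siCtrl 2-cell libraries and had 0.497 and 1.20 FPKM in siEtv5 2-cell embryos, against 4.35, 4.12 and 2.05 FPKM in siEtv5 zygotes (-1.41 log2, not called without 2-cell replicate 1, adjusted p = 0.116, or replicate 2, adjusted p = 0.0538).

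The mitochondrial carrier of S-adenosylmethionine, Slc25a26, had 3.11 and 0.349 FPKM in siEtv5 2-cell embryos, against 11.8, 6.02 and 5.48 FPKM in siEtv5 zygotes (-1.999 ± 0.52 log2, and not called without 2-cell replicate 2, adjusted p = 0.147). It had 0.387, 2.36 and 3.55 FPKM in siMlx 2-cell embryos, against 9.25, 3.49 and 7.72 FPKM in siMlx zygotes (-1.73 ± 0.46 log2). In siRfx1 2-cell embryos it was not low, with 10.9, 21.96 and 5.91 FPKM, against 3.97, 12.7 and 10.3 FPKM in siRfx1 zygotes (0.22 ± 0.58 log2, adjusted p = 0.772, limma), and the sign turned without siRfx1 2-cell replicate 2 (-0.15) or siRfx1 zygote replicate 1 (-0.24). Its exons overlap Lrig1 on the other strand, so the pair cannot be told apart.

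Grouped by SLC family, with groups named after substrates of the families, most groups held called genes of both directions. A gene follows its family, so Slc5a6 and Slc16a10 count with sugars and monocarboxylates, and the non-carriers Slc7a6os, Slc4a1ap and Slc9a3r1 count too. Beside all group counts below, the shares over all genes tested were 37.9% higher and 23% lower in siEtv5. They were 35.4% and 29.1% in siMlx, and 18.7% and 29.7% in siRfx1. The 37 mitochondrial carriers had 14 members higher and 4 lower in siEtv5, 13 and 9 in siMlx, and 5 and 9 in siRfx1 2-cell embryos (35, 35 and 31 tested). Their parts called higher were near the shares over all genes. Slc25a44 had 212 and 172 FPKM in siEtv5 2-cell embryos, against 12.4, 10.4 and 8.67 FPKM in siEtv5 zygotes (3.82 ± 0.28 log2, adjusted p = 1.22e-04, limma), and 3.75 ± 0.34 log2 in siMlx. Slc25a3 had 120.4 and 155 FPKM in siEtv5 2-cell embryos, against 9.39, 7.78 and 12.4 FPKM in siEtv5 zygotes (3.43 ± 0.34 log2). These carriers of phosphate and branched-chain amino acids rose under every siRNA tested, whereas Slc25a5 stayed among the most abundant at both stages without passing the test.

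Slc25a5 had 87.4, 156 and 199 FPKM in siMlx 2-cell embryos and 125, 59.9 and 148 FPKM in siMlx zygotes. The related ADP/ATP carrier Slc25a4 had 15.4 and 21.9 FPKM in siEtv5 2-cell embryos, against 21.4, 10.53 and 18.6 FPKM in siEtv5 zygotes, which overlap. In siMlx Slc25a4 had 0.825, 3.56 and 12.8 FPKM in 2-cell embryos, against 13.6, 15.4 and 18.2 FPKM in zygotes (-2.13 ± 0.57 log2, adjusted p = 0.0100, limma), and in siRfx1 0, 0 and 5.84 FPKM in 2-cell embryos, against 15.7, 18.3 and 18.2 FPKM in zygotes (-3.41 ± 0.77 log2). The siRfx1 call was lost without any single zygote library (adjusted p = 0.0517 to 0.0532), and the difference between the siMlx and siEtv5 stage differences did not pass the test (adjusted p = 0.193). Slc25a38 rose by 2.41 ± 0.35 log2 in siMlx and by 1.17 ± 0.36 in siEtv5, where the call was lost without siEtv5 2-cell replicate 1 (0.88, adjusted p = 0.144), zygote replicate 2 (adjusted p = 0.0557) or zygote replicate 3 (adjusted p = 0.0626). Slc25a15 had differences of -0.74 in siEtv5 and -0.96 in siMlx and was not called, though in siMlx it was without zygote replicate 1 (-1.08, adjusted p = 0.0344) or replicate 2 (-1.02, adjusted p = 0.0216).

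**Figure D3:**
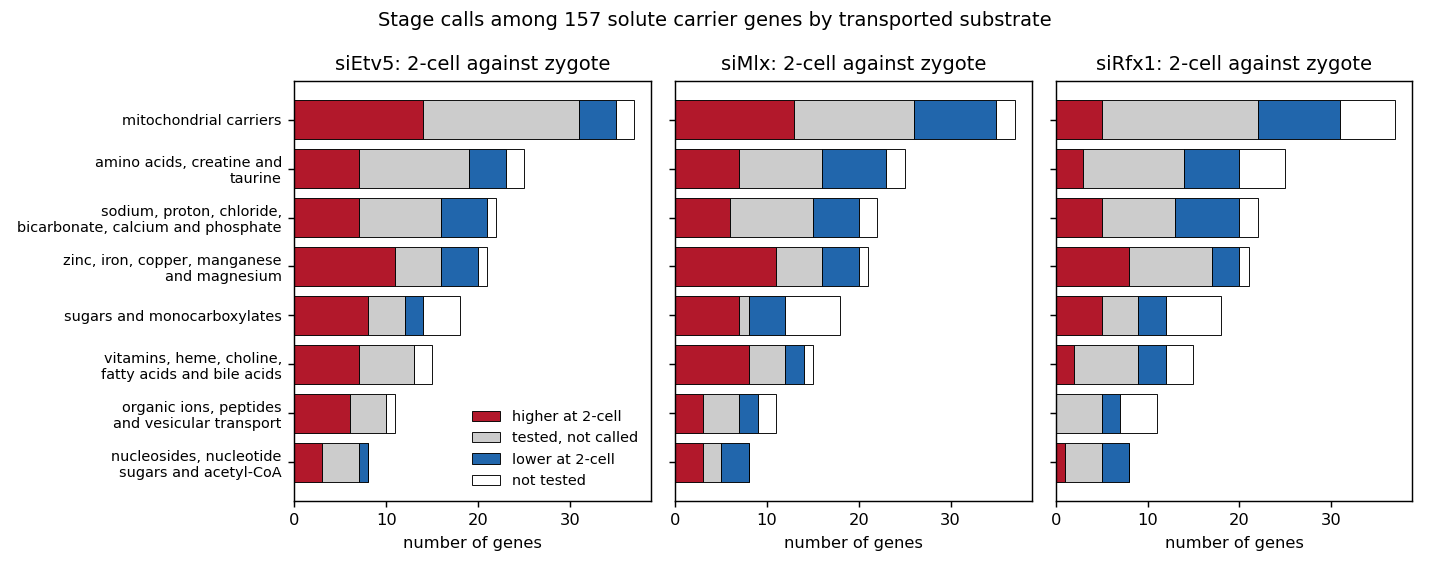
Number of solute carrier genes (x axis) in each of 8 groups of SLC families, named after substrates of the families and not of each gene. Genes are called higher at the 2-cell stage, tested and not called, called lower at the 2-cell stage, or not tested, in siEtv5, siMlx and siRfx1 embryos. The metal group has 11 higher and 4 lower in siEtv5 and in siMlx, and mitochondrial carriers have 14 higher and 4 lower in siEtv5 and 13 and 9 in siMlx. Over all genes tested, 37.9% were higher and 23% lower in siEtv5, and 35.4% and 29.1% in siMlx.

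Among 25 genes of amino acid, creatine and taurine families, 7 were higher and 4 lower in siEtv5, 7 and 7 in siMlx, and 3 and 6 in siRfx1 2-cell embryos. Alongside Slc1a1 and Slc1a5, the large neutral amino acid carrier Slc7a5 had 41.3 and 35.5 FPKM in siEtv5 2-cell embryos, against 4.47, 2.62 and 2.94 FPKM in siEtv5 zygotes (2.96 ± 0.30 log2), and 19.8, 38.4 and 40.1 FPKM in siMlx 2-cell embryos, against 3.85, 2.49 and 2.00 FPKM in siMlx zygotes (2.79 ± 0.32 log2). Its heavy-chain partner Slc3a2 did not pass the test, with 28.3 and 44.1 FPKM in siEtv5 2-cell embryos and 35.8, 19.5 and 23.5 FPKM in siEtv5 zygotes. In siMlx Slc3a2 was not called either (1.02, adjusted p = 0.179) but was without siMlx 2-cell replicate 3 (1.72, adjusted p = 0.0180) and with FPKM as deposited (1.39, adjusted p = 0.0446). Slc7a6os was not called in any of the 3 siRNAs.

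The imino acid carrier genes Slc6a20a and Slc6a20b, near copies 4342 bp apart that may share reads, went the other way. Slc6a20b was listed at 0 in all 11 2-cell libraries and had 2.24, 2.52 and 1.19 FPKM in siEtv5 zygotes and 2.88, 2.61 and 2.89 FPKM in siMlx zygotes. Slc6a20a had 0.773 and 2.12 FPKM in siEtv5 2-cell embryos, against 4.50, 4.57 and 4.21 FPKM in siEtv5 zygotes (-1.38 ± 0.32 log2, not called without 2-cell replicate 1, -0.93, adjusted p = 0.0705). In siMlx its fall (-1.30 ± 0.39 log2) was not called without 2-cell replicate 2 (-0.88, adjusted p = 0.0540) or zygote replicate 3 (-1.28, adjusted p = 0.0527), with a pseudocount of 0.1 (adjusted p = 0.0656) or with FPKM as deposited (-1.09, adjusted p = 0.0513).

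Of 22 genes for sodium, protons, chloride, bicarbonate, calcium and phosphate, 7 were higher and 5 lower in siEtv5, 6 and 5 in siMlx, and 5 and 7 in siRfx1 2-cell embryos. Slc34a2, Slc12a2 and Slc4a11 were among those that rose. Slc9a3r1, which encodes a scaffold protein, had 40.1, 55.8 and 26.4 FPKM in siMlx 2-cell embryos and 19.99, 20.9 and 9.30 FPKM in siMlx zygotes and did not pass the test (adjusted p = 0.107), but did without siMlx 2-cell replicate 3 (1.28, adjusted p = 0.0286) and with FPKM as deposited (1.25, adjusted p = 0.0258).

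Sugar and monocarboxylate families held 18 genes, with 8 higher and 2 lower in siEtv5 (14 tested), 7 and 4 in siMlx (12 tested), and 5 and 3 in siRfx1 (12 tested). Slc16a1, the lactate and pyruvate transporter MCT1, had 60.5 and 54.7 FPKM in siEtv5 2-cell embryos, against 8.96, 4.36 and 13.5 FPKM in siEtv5 zygotes (2.41 ± 0.48 log2), and 67.3, 57.4 and 52.1 FPKM in siMlx 2-cell embryos, against 6.10, 21.03 and 6.61 FPKM in siMlx zygotes (2.12 ± 0.50 log2). The siEtv5 call was lost without 2-cell replicate 1 (adjusted p = 0.0889) or replicate 2 (adjusted p = 0.0793). In siRfx1 2-cell embryos Slc16a1 had 10.8, 26.1 and 20.4 FPKM and its difference of 1.00 did not pass, except without siRfx1 2-cell replicate 1 (1.47, adjusted p = 0.0127). Slc2a8, a glucose transporter, had 7.34 and 10.7 FPKM in siEtv5 2-cell embryos and 12.4, 18.1 and 13.01 FPKM in siMlx 2-cell embryos and was listed at 0 in all zygote libraries of both.

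Vitamin, heme, choline, fatty acid and bile acid families had 7 of 13 tested genes higher and none lower in siEtv5, 8 of 14 higher and 2 lower in siMlx, and 2 of 12 higher and 3 lower in siRfx1 2-cell embryos. Slc10a3, of the bile acid transporter family, had 89.99 and 60.6 FPKM in siEtv5 2-cell embryos, against 12.4, 4.75 and 11.1 FPKM in siEtv5 zygotes (2.68 ± 0.45 log2, not called without 2-cell replicate 1, 2.48, adjusted p = 0.0658), and rose by 1.38 ± 0.31 in siMlx. Slc10a6, of the same family, was called in siEtv5 and not in siMlx or siRfx1, though in siRfx1 it was with FPKM as deposited (1.28, adjusted p = 0.0438) and without 2-cell replicate 2 (1.37, adjusted p = 0.0245). It is described with the knockdown comparisons.

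In the 2 smallest groups the counts were 6 higher and 0 lower of 10 tested organic ion, peptide and vesicular genes in siEtv5, 3 and 2 of 9 in siMlx, and 0 and 2 of 7 in siRfx1. For nucleoside and nucleotide sugar carriers they were 3 and 1, 3 and 3, and 1 and 3 of 8 tested. Slc29a2, an equilibrative nucleoside transporter, had 18.1 and 22.8 FPKM in siEtv5 2-cell embryos, against 0, 0 and 0.831 FPKM in siEtv5 zygotes (3.93 ± 0.39 log2), and 4.28 ± 0.31 in siMlx. Slc22a5, the carnitine transporter, rose in siEtv5 (1.56 ± 0.27 log2) with 11.8 and 10.8 FPKM in 2-cell embryos, against 2.37, 2.78 and 2.51 FPKM in zygotes, and had a difference of 0.60 in siMlx that did not pass (adjusted p = 0.110).

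Slc15a5, of the peptide transporter family, had 0, 0.773 and 0.494 FPKM in siMlx 2-cell embryos, against 10.7, 7.71 and 11.7 FPKM in siMlx zygotes (-3.23 ± 0.32 log2, adjusted p = 5.26e-05, limma). In siEtv5 it had 4.41 and 3.44 FPKM in 2-cell embryos, against 5.84, 11.9 and 2.66 FPKM in zygotes, and was not called (adjusted p = 0.281) except with the replicate block (-1.11, adjusted p = 0.0416). Its relative Slc15a4, which exports histidine and peptides from lysosomes, was not called in any of the 3 siRNAs. Slc35a4 and Slc35a5 were lower in siMlx 2-cell embryos (-1.84 and -1.61 log2) and were not called in siEtv5. The Slc35a4 call in siMlx was lost without 2-cell replicate 1 (-1.20, adjusted p = 0.0548) or replicate 2 (adjusted p = 0.0571) or with FPKM as deposited (-1.46, adjusted p = 0.0517), and its exons overlap Apbb3 on the other strand. The siMlx stage difference was not shown to differ from the siEtv5 one for Slc15a5 (adjusted p = 0.0579), Slc35a4 (0.405) or Slc35a5 (0.113).

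Of 21 zinc, iron, copper, manganese and magnesium genes, 20 were tested in each siRNA, with 11 higher and 4 lower in siEtv5, 11 and 4 in siMlx, and 8 and 3 in siRfx1 2-cell embryos, beside shares called higher of 37.9%, 35.4% and 18.7% over all genes tested. Their median stage difference was 2.07, 1.81 and 1.02 on the log2 scale. Slc39a4, which imports zinc in the gut, had 29.2 and 26.5 FPKM in siEtv5 2-cell embryos, against 0.430, 0.330 and 0 FPKM in siEtv5 zygotes (4.37 ± 0.29 log2, adjusted p = 9.63e-05, limma). It had 30.5, 68.6 and 53.0 FPKM in siMlx 2-cell embryos, against 0.429, 0.631 and 0 FPKM in siMlx zygotes, and 13.6, 7.96 and 15.8 FPKM in siRfx1 2-cell embryos, against 0.242, 0.236 and 0 FPKM in siRfx1 zygotes. The zinc importer Slc39a1 likewise went up, with 19.8 and 16.5 FPKM in siEtv5 2-cell embryos, against 0.609, 0 and 0 FPKM in siEtv5 zygotes (3.87 ± 0.32 log2).

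The SLC30 family, which moves zinc out of the cytosol, went both ways. Of its 6 genes, all tested, 4 were higher (Slc30a1, Slc30a2, Slc30a5 and Slc30a6) and 2 lower (Slc30a3 and Slc30a9) in siEtv5 2-cell embryos, and 3 and 2 in siMlx and in siRfx1. Slc30a1, the exporter of the plasma membrane, had 40.02 and 30.2 FPKM in siEtv5 2-cell embryos, against 2.22, 2.71 and 2.78 FPKM in siEtv5 zygotes (3.09 ± 0.30 log2), 19.4, 25.5 and 30.1 FPKM in siMlx 2-cell embryos, against 2.00, 1.95 and 2.53 FPKM in siMlx zygotes, and 53.8, 90.8 and 144 FPKM in siRfx1 2-cell embryos, against 2.27, 2.08 and 3.37 FPKM in siRfx1 zygotes (4.46 ± 0.44 log2). Its exons overlap the transcript 1700034H15Rik on the other strand. Slc30a5, a zinc carrier of the Golgi, rose by 3.03 ± 0.36 in siEtv5 and 2.95 ± 0.36 in siMlx. Of 9 SLC39 genes, 5 were higher and 2 lower in siEtv5, 6 and 2 in siMlx, and 4 and 0 of 8 tested in siRfx1. The vesicular zinc carrier Slc30a3 was lower at the 2-cell stage in all 3 siRNAs, and the importer Slc39a6 in siEtv5 and siMlx. In siRfx1 Slc39a6 was not called (-0.82 to -0.36 log2 with 1 library left out, adjusted p = 0.116 to 0.281, limma). Slc39a6 had 32.1 and 29.6 FPKM in siEtv5 2-cell embryos, against 104, 67.2 and 132 FPKM in siEtv5 zygotes (-1.89 ± 0.38 log2, not called without 2-cell replicate 1, adjusted p = 0.0786, or replicate 2, adjusted p = 0.0865). In siMlx it fell by 1.44 (adjusted p = 0.0130), again not without 2-cell replicate 2 (-1.25, adjusted p = 0.0624), and Slc39a10, its partner in oocyte zinc uptake, was not called in any of the 3 siRNAs.

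**Figure D4:**
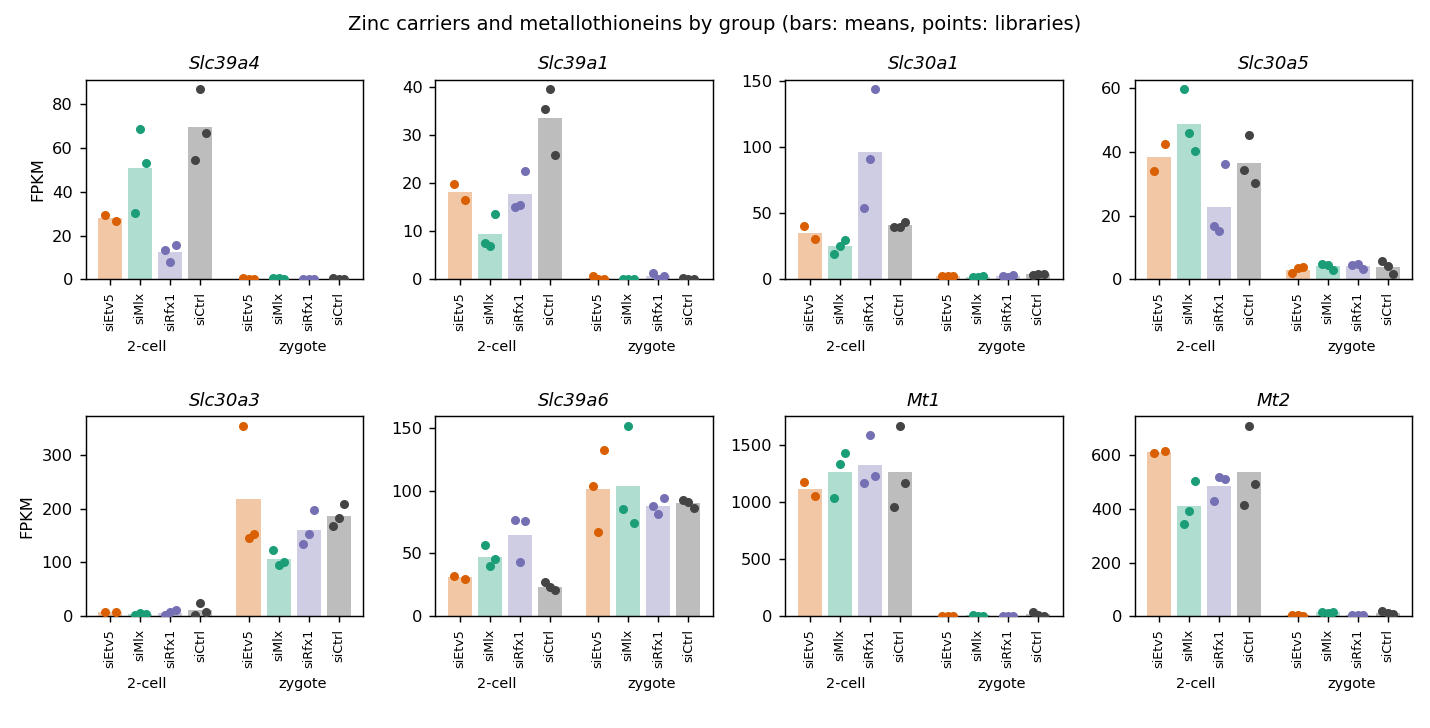
FPKM as deposited (y axis) of 6 zinc carrier genes and 2 metallothionein genes in the 2-cell embryos (left in each panel) and zygotes (right) of each siRNA; points are libraries, bars group means. Mt1 and Mt2 are near 0 in zygotes and at 344 FPKM or more in every 2-cell library, Slc39a4, Slc39a1, Slc30a1 and Slc30a5 are high at the 2-cell stage, and Slc30a3 is high in zygotes.

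Genes that work with the carriers were counted in lists chosen with earlier results known, beside shares over all genes tested of 37.9% higher and 23% lower in siEtv5, 35.4% and 29.1% in siMlx, and 18.7% and 29.7% in siRfx1. Of 12 genes for metal storage and response, 6 were higher and 0 lower in each of siEtv5, siMlx and siRfx1 2-cell embryos (11, 10 and 10 tested). The zinc-binding metallothionein Mt1 had 1182 and 1056 FPKM in siEtv5 2-cell embryos, against 4.43, 1.34 and 3.40 FPKM in siEtv5 zygotes (7.95 ± 0.42 log2), and 1039, 1338 and 1429 FPKM in siMlx 2-cell embryos, against 10.55, 5.46 and 5.27 FPKM in siMlx zygotes (6.98 ± 0.33 log2). Mt2 rose by 6.86 ± 0.39 and 4.36 ± 0.28, and the transferrin receptor Tfrc, which brings in iron, by 5.51 ± 0.31 and 5.38 ± 0.36 in siEtv5 and siMlx. All 3 were called in siRfx1 too.

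Of 26 genes that sense amino acids or respond to their lack, 10 were higher and 3 lower in siEtv5 (22 tested), 7 and 4 in siMlx (20 tested), and 5 and 7 in siRfx1 2-cell embryos (21 tested). Sesn2, a leucine sensor, had 146 and 143 FPKM in siEtv5 2-cell embryos, against 2.93, 1.76 and 5.47 FPKM in siEtv5 zygotes (4.89 ± 0.44 log2), and Trib3, a target of the amino acid response, rose by 4.64 ± 0.45. The Rag GTPase gene Rraga and the kinase gene Eif2ak4 (GCN2) were lower in siMlx 2-cell embryos, with differences of -4.27 ± 0.49 and -3.15 ± 0.38 log2. In siEtv5 the Rraga call was lost without 2-cell replicate 2 (-3.22, adjusted p = 0.0593).

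For the other lists, 4 of 9 tested genes of carrier chaperones and mitochondrial pyruvate and calcium entry were higher and 2 lower in siEtv5, 2 and 3 in siMlx, and 2 and 5 in siRfx1. Mpc2, a subunit of the mitochondrial pyruvate carrier, rose by 3.40 ± 0.42 and 4.35 ± 0.55. The calcium channel gene Mcu had 9.89, 4.82 and 9.99 FPKM in siMlx 2-cell embryos, against 145, 90.2 and 145 FPKM in siMlx zygotes (-4.17 ± 0.39 log2). The 16 tested lysosomal proton pump genes had 6 higher and 2 lower in siEtv5 and 3 and 5 in siMlx, and 17 tested had 3 and 7 in siRfx1. The 6 tested sodium pump genes had 3 and 2 in siEtv5 and 2 and 2 in siMlx and in siRfx1.

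Of the siRfx1 calls, several rested on all 3 zygote libraries: without any single one, Slc29a2 (adjusted p = 0.0629 to 0.0745), Slc2a8 (0.0537 to 0.0632) and Slc30a5 (0.0501 to 0.0675) were no longer called. Eif2ak4 was lost there too (0.0699 to 0.0839) and also without siRfx1 2-cell replicate 2 (0.0556), and with a pseudocount of 0.1 (0.0645).

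The promoters of the genes bear on the siRNA targets, since MLX binds E-boxes, ETV5 binds ETS motifs and RFX1 binds X-boxes. RefSeq windows (GRCm38.p6, 250 bases before to 50 after a start, 300 bases in all) were matched by symbol for 119 of the 157 genes, 152 windows in all. The E-box CACGTG was in 17.1% of these windows, against 7.15% of 32851 windows of all genes, the ETS motif CCGGAAG in 15.8%, against 8.86%, and the RFX motif GTTGCC in 11.8%, against 12.5% (both strands searched, no motif contains another). The median CpG count was 18 in the windows of solute carrier genes and 7 in all windows, and the median GC share 60.8% and 52.7%. The part of base composition in these shares was not tested, and a match is only a run of letters.

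Genes with and without an E-box were called in both directions. In siMlx, 9 of the 23 tested genes with an E-box were higher and 7 lower in 2-cell embryos, against 34 and 19 of the 85 without. In siEtv5 the counts were 8 and 3 of 23 with an E-box, against 37 and 12 of 85 without. By ETS motif they were 9 and 3 of 21 with, against 36 and 12 of 87 without, in siEtv5. The windows below show the E-box in capitals in a gene that fell, the citrate carrier gene, and in one that rose, the pyrimidine nucleotide carrier gene. They are followed by the strongest riser and by Slc10a6, which hold none of the 3 motifs. The window of Slc20a1, named with Slc10a6 in the siMlx 2-cell comparison below, is not shown and holds the E-box at -175 and -22.
Slc25a1: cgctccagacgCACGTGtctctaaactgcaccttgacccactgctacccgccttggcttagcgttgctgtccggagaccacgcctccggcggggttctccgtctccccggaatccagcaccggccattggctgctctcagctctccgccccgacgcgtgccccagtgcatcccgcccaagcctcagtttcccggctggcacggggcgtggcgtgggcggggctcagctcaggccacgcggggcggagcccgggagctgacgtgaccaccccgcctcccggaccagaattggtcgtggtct
Slc25a36: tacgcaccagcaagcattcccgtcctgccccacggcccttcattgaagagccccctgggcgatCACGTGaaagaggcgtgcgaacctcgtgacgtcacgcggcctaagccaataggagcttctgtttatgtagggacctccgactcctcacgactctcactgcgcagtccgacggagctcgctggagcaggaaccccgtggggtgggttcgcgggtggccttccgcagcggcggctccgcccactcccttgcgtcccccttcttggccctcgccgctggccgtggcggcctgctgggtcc
Slc34a2: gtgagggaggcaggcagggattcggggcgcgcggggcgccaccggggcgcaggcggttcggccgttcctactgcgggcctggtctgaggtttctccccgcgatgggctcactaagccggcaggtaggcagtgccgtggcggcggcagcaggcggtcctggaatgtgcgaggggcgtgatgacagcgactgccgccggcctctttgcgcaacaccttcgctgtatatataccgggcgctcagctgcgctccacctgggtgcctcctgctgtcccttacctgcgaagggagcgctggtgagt
Slc10a6: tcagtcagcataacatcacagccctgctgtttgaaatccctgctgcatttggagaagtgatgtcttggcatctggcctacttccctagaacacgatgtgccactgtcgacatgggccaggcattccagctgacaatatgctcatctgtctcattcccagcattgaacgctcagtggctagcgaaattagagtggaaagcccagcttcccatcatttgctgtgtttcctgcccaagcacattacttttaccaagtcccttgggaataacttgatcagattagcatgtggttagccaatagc

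In GRCm38.p6 these windows are Slc25a1 at chr16:17928170-17928469, minus strand, with the E-box at -239 from the start, Slc25a36 at chr9:97110992-97111291, minus strand, with the E-box at -187, Slc34a2 at chr5:53049103-53049402, plus strand, and Slc10a6 at chr5:103629354-103629653, minus strand. Slc25a1 and Slc25a36 were shown as a gene that fell and a gene that rose. The part of the E-box in their stage differences was not tested.

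The knockdown comparisons ask which carriers depend on each factor. The comparisons of a stage share the 3 siCtrl libraries that chose the genes, so a gene near the limit tends to look lower in the other group, and nothing is read from the balance of directions. Of the 157 genes, 1 was called in siMlx zygotes (107 tested) and 1 in siRfx1 2-cell embryos (143 tested), and none in the other 4 comparisons with siCtrl. Over all genes tested, the called share was 2.15% in siMlx zygotes, 3.56% in siRfx1 2-cell embryos, 0% in siEtv5 zygotes, 0.0557% in siRfx1 zygotes, 0.251% in siEtv5 2-cell embryos and 0.00945% in siMlx 2-cell embryos. An unadjusted p under 0.05 (limma) was reached in zygotes by 9 of 110 tested genes in siEtv5 (8.18%, beside 12.4% of all genes tested), 19 in siMlx (17.8%, beside 24.7%) and 14 of 107 in siRfx1 (13.1%, beside 14.6%). In 2-cell embryos it was reached by 21 of 147 in siEtv5 (14.3%, beside 15.5%), 36 of 146 in siMlx (24.7%, beside 18.7%) and 32 in siRfx1 (22.4%, beside 23.2%). The median difference was -0.02, -0.09 and 0.02 on the log2 scale in siEtv5, siMlx and siRfx1 zygotes, beside -0.01, 0.03 and 0.00 over all genes, and -0.09, -0.25 and -0.53 in 2-cell embryos, beside 0.04, -0.05 and -0.25. With FPKM as deposited, without rescaling, the median of all genes was -0.27 in siMlx zygotes and -0.85 in siRfx1 2-cell embryos, and the calls were 1 higher and 5 lower in siMlx zygotes and 0 higher and 20 lower in siRfx1 2-cell embryos.

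Slc35a3, the Golgi carrier of UDP-N-acetylglucosamine, was higher in siMlx zygotes, with 10.8, 19.8 and 10.7 FPKM, than in siCtrl zygotes, with 5.05, 4.37 and 6.65 FPKM (1.49 ± 0.30 log2, adjusted p = 0.0460, limma). The groups did not overlap, and siRfx1 zygotes had 7.81, 10.4 and 10.4 FPKM and siEtv5 zygotes 3.95, 7.24 and 5.65 FPKM. Against siEtv5 zygotes in place of siCtrl the difference was 1.28 (adjusted p = 0.187). The call was lost without siMlx zygote replicate 1 or 3 (adjusted p = 0.122 and 0.0637) and without siCtrl zygote replicate 1, 2 or 3 (0.128, 0.17 and 0.158).

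Slc39a6, a zinc importer, was higher in siRfx1 2-cell embryos, with 76.4, 42.8 and 75.6 FPKM, than in siCtrl 2-cell embryos, with 26.9, 23.1 and 20.8 FPKM (2.07 ± 0.40 log2, adjusted p = 0.0398, limma). Zygotes of these siRNAs had 87.7, 81.7 and 94.0 FPKM in siRfx1 and 92.7, 90.9 and 86.5 FPKM in siCtrl, and siMlx 2-cell embryos had 56.6, 39.7 and 45.5 FPKM. The call was lost against siEtv5 2-cell embryos (1.64, adjusted p = 0.157), with FPKM as deposited (1.38, adjusted p = 0.0601), without siRfx1 2-cell replicate 3 (1.92, adjusted p = 0.0534) and without siCtrl 2-cell replicate 1, 2 or 3 (0.144, 0.148 and 0.158). The siRfx1 2-cell libraries are the shallow ones, and their stage markers stand apart too, with oocyte genes at 641 to 786 FPKM, against 353 to 411 FPKM in siCtrl 2-cell embryos, and 2-cell genes at 172 to 226 FPKM, against 397 to 546 FPKM. The part of these markers in the Slc39a6 difference was not tested.

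The zinc exporter Slc30a1 had 53.8, 90.8 and 144 FPKM in siRfx1 2-cell embryos and 39.9, 39.2 and 43.6 FPKM in siCtrl 2-cell embryos, groups that do not overlap, and missed the call (1.80 ± 0.42 log2, adjusted p = 0.0619, limma) but passed it without siRfx1 2-cell replicate 1 (2.18, adjusted p = 0.0245) and with a pseudocount of 0.1 (1.83, adjusted p = 0.0452). In the same comparison 1 of 4 tested sodium pump genes was called higher, and 1 of 22 amino acid sensing genes and 1 of 16 lysosomal proton pump genes lower. Of 11 tested metal response genes 2 were called higher and 0 lower, beside 3.56% of all genes called in either direction. Mt1, Mt2 and Tfrc of this list overlapped siCtrl in deposited FPKM. The ferritin gene Ftl1 had 132, 114 and 143 FPKM in siRfx1, against 383, 449 and 416 FPKM in siCtrl 2-cell embryos, and was not called. In siMlx zygotes 1 of 9 tested metal genes and 1 of 5 sodium pump genes were called higher, beside 2.15% of all genes. Mtf1, the zinc-sensing transcription factor, had 94.5, 48.4 and 51.6 FPKM in siRfx1 and 24.1, 21.1 and 26.2 FPKM in siCtrl 2-cell embryos (2.04 ± 0.41 log2). The iron-responsive Ireb2 had 186, 86.9 and 191 FPKM and 29.8, 21.9 and 34.96 FPKM (3.01 ± 0.42 log2). Both were lost without siCtrl 2-cell replicate 1, 2 or 3 (adjusted p = 0.158 to 0.168 for Mtf1 and 0.104 to 0.118 for Ireb2) and with siEtv5 as the control (0.133 and 0.0898). Mtf1 was also lost with no filter (0.0647), with FPKM as deposited (1.35, 0.0660) and with the replicate block (0.114).

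**Figure D5:**
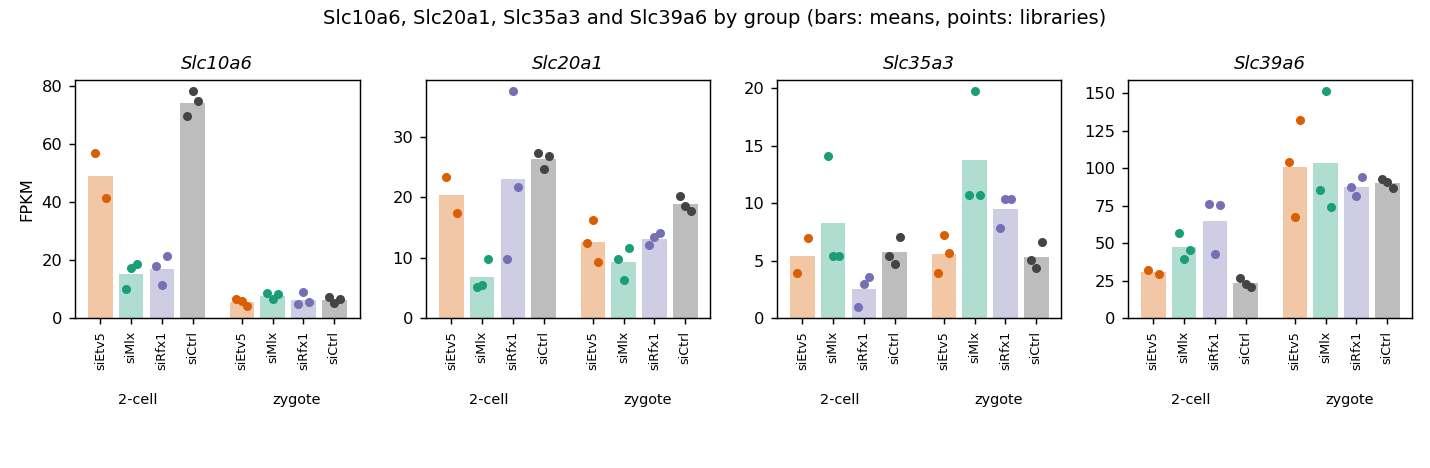
FPKM as deposited (y axis) of Slc10a6, Slc20a1, Slc35a3 and Slc39a6 in 2-cell embryos (left in each panel) and zygotes (right) of each siRNA; points are libraries, bars group means. Slc10a6 lies between 9.89 and 18.8 FPKM in siMlx 2-cell libraries and between 69.7 and 78.3 FPKM in siCtrl 2-cell libraries, and is low in all zygotes.

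Slc10a6, a sodium-dependent carrier of steroid sulfates, had 9.89, 17.4 and 18.8 FPKM in siMlx 2-cell embryos, against 69.7, 78.3 and 74.99 FPKM in siCtrl 2-cell embryos. The difference of -2.003 ± 0.26 log2 missed the threshold (adjusted p = 0.0506, limma), and passed it with FPKM as deposited (-2.25, adjusted p = 0.0282), without siMlx 2-cell replicate 1 (-1.88, adjusted p = 0.0305), without replicate 3 (-2.06, adjusted p = 0.0362) and with arithmetic-mean rescaling (-2.004, adjusted p = 0.0496). It had 17.9, 11.5 and 21.5 FPKM in siRfx1 2-cell embryos (-1.42 ± 0.40 log2, adjusted p = 0.0950) and 56.8 and 41.5 FPKM in siEtv5 2-cell embryos (-0.59 ± 0.20 log2, adjusted p = 0.238). Zygotes had 8.55, 6.47 and 8.28 FPKM in siMlx, 6.53, 5.84 and 4.05 FPKM in siEtv5 and 7.36, 5.22 and 6.55 FPKM in siCtrl. These deposited zygote values overlap, but on the rescaled FPKM of the test the siMlx zygotes, 7.92 or more, lay above the siCtrl zygotes, 6.29 or less (0.56 ± 0.20 log2, adjusted p = 0.141, limma).

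The stage difference of Slc10a6 was 0.50 ± 0.28 log2 in siMlx embryos and 2.71 ± 0.31 in siEtv5 embryos, groups that did not choose the genes. Fitted over the 4 groups together, rescaled as 1 set, the difference between the stage differences was -2.03 ± 0.41 (adjusted p = 0.0312, limma), and Slc10a6 was the only solute carrier gene of 143 tested that was called in this comparison, against 2.1% of all genes. An unadjusted p under 0.05 was reached by 22 solute carrier genes (15.4%, beside 21% of all genes tested), and the median was -0.06 beside -0.11 over all genes. With siMlx and siEtv5 2-cell embryos compared alone, without zygotes, Slc10a6 differed by -1.38 (adjusted p = 0.166). The interaction was lost in 7 of 11 refits that each left out 1 library, as given in the closing section. Slc10a6 lies on chr5:104034730-104058422, minus strand in mm9.

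The inorganic phosphate carrier Slc20a1 was the other gene at the top of the siMlx 2-cell list, with 5.16, 5.51 and 9.73 FPKM in siMlx 2-cell embryos, against 27.4, 24.8 and 26.9 FPKM in siCtrl 2-cell embryos (-1.62 ± 0.30 log2, adjusted p = 0.0750, limma). It was called without siMlx 2-cell replicate 3 (-1.77, adjusted p = 0.0414). In siRfx1 2-cell embryos it had 9.80, 37.6 and 21.8 FPKM, which spans the siCtrl values. In the other comparisons the genes of lowest p were Slc25a39 (1.29 ± 0.26 log2, adjusted p = 0.300), a mitochondrial glutathione carrier, and Slc39a8 (1.53 ± 0.31 log2, adjusted p = 0.300) in siEtv5 zygotes, Slc3a2 (1.53 ± 0.31 log2, adjusted p = 0.233) and Slc35a3 (0.88 ± 0.20 log2, adjusted p = 0.233) in siRfx1 zygotes, and Slc39a4 (-1.25 ± 0.24 log2, adjusted p = 0.0951) and the aromatic amino acid carrier Slc16a10 (-1.57 ± 0.30 log2, adjusted p = 0.0951) in siEtv5 2-cell embryos, all by limma and none called.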

How the data were processed

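RNA-seq libraries (oligo-dT reverse transcription, amplified cDNA, no strand information) were aligned by the authors to mm9 with STAR (2.5.2b in the submitters' notes) and quantified with StringTie (1.3.3b in the file headers, 1.3.4 in the notes) on RefSeq transcripts. The deposited values used are the FPKM the authors' StringTie run wrote for each transcript, not read counts. The study's own tests used read counts, which were not used here. Amplified reads without molecular identifiers are not independent molecules, and their depth limits low genes most.

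FPKM was summed per gene (29306 transcripts, 22619 gene names), leaving out 976 unnamed transcripts that held 0.610 to 1.48% of a library's FPKM. Aligned bases per library came from coverage divided by FPKM, also deposited by the authors' run. Per comparison, libraries were rescaled by the median ratio to the geometric mean over genes at 1 FPKM or more in each library. The tests used limma 3.58.1 (R 4.3.3, mean-variance trend) on the compared groups only, after a pseudocount of 1 and log2 transformation, for genes whose rescaled FPKM averaged 1 or more. The script was tested on simulated data. Tables and figures used Python 3.11.15 with pandas 2.3.3 and matplotlib 3.10.9. Groups came from the labels. The Benjamini-Hochberg adjustment covered all genes tested in a comparison. The comparisons were 3 stage comparisons, 6 comparisons with siCtrl and 1 difference of stage differences. Alternatives were a pseudocount of 0.1, no filter, FPKM as deposited, the replicate number as a block, siEtv5 as the control, and each library left out. An arithmetic-mean rescaling, siCtrl in place of siEtv5, and siMlx against siEtv5 2-cell embryos alone were chosen after seeing the data.

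The members, the gene lists and the role groups, which follow SLC families, were chosen with earlier results of these data known. Named genes were the 10 largest rises and falls called in both siEtv5 and siMlx, called genes or else the 2 lowest p of each other comparison, the 10 highest siCtrl levels per stage, and up to 3 per role group by level. Slc7a5, Slc6a20a, Slc6a20b, Slc25a4, Slc16a1, Slc2a8, Slc30a1, Slc30a2, Slc30a5, Slc30a6, Slc30a9, Slc39a1 and the genes of the partner lists were named after their values were seen.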

Additional observations from a re-analysis of the deposited data

Results flagged for a closer look

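Slc10a6 differed between siMlx and siEtv5 embryos in its change across stages. Its stage difference was 2.03 lower on the log2 scale in siMlx than in siEtv5 embryos (-2.03 ± 0.41, limma adjusted p = 0.0312), by a test of the interaction itself. The levels at the 2-cell stage were 9.89, 17.4 and 18.8 FPKM in siMlx and 56.8 and 41.5 FPKM in siEtv5 embryos, and those in zygotes 8.55, 6.47 and 8.28 FPKM in siMlx and 6.53, 5.84 and 4.05 FPKM in siEtv5 embryos. On the rescaled FPKM of this fit the zygotes were also apart, at 8.05 to 10.2 in siMlx and 4.46 to 6.13 in siEtv5. In siMlx 2-cell embryos the 2-cell marker genes were also low, with sums of 63.7 to 247 FPKM, against 967 to 1103 FPKM in siEtv5 2-cell embryos, and their part in the Slc10a6 difference was not tested.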

How the results depend on the processing

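The stage counts of 83, 94 and 65 called genes in siEtv5, siMlx and siRfx1 stayed within 1.5 times under a pseudocount of 0.1, no filter, FPKM as deposited, arithmetic-mean rescaling and the replicate block. With 1 library left out they were 55 to 83, 85 to 91 and 43 to 71. FPKM as deposited moved the median stage difference of all genes to 0.67 in siEtv5, 0.57 in siMlx and -0.02 in siRfx1.

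The comparisons with siCtrl were less stable. In siMlx zygotes the count of 1 became 0 with no filter, with the replicate block and with siEtv5 as the control, 6 with FPKM as deposited, and 0 to 1 with 1 library left out. In siMlx 2-cell embryos the count of 0 became 1 with FPKM as deposited and with arithmetic-mean rescaling, and 0 to 5 with 1 library left out. In siRfx1 2-cell embryos the count of 1 became 6 with a pseudocount of 0.1, 20 with FPKM as deposited, 0 with no filter, the replicate block or siEtv5 as the control, and 0 to 5 with 1 library left out. It stayed at 0 with 1 library left out in siEtv5 zygotes, siRfx1 zygotes and siEtv5 2-cell embryos. The difference of stage differences gave 2 with a pseudocount of 0.1, 3 with no filter, 0 with the replicate block, 2 with siCtrl in place of siEtv5, 0 with 2-cell embryos alone, and 0 to 3 with 1 library left out. The causes were not tested.

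The difference of Slc10a6 had an adjusted p of 0.0732 with the replicate block and was lost without siMlx 2-cell replicate 2 (adjusted p = 0.0634), siMlx zygote replicate 1 or 3 (0.0912 and 0.0934), siEtv5 2-cell replicate 1 or 2 (0.137 and 0.107) and siEtv5 zygote replicate 1 or 3 (0.0668 and 0.0865), with values of -2.24 to -1.81. With no filter Slc35a3 in siMlx zygotes had an adjusted p of 0.0915 and Slc39a6 in siRfx1 2-cell embryos 0.0623. Under the block they had 0.0522 and 0.112.

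Stage differences that were not called changed sign in a few settings. With FPKM as deposited Slc25a4 in siEtv5 was 0.17, Slc35a5 in siEtv5 0.049 and Slc15a4 in siMlx 0.19. With the replicate block Slc25a5 and Slc25a4 in siEtv5 were -0.49 and 0.071, and with arithmetic-mean rescaling Slc25a5 in siEtv5 was -0.048. With 1 library left out the ranges were -0.54 to 0.23 for Slc25a5, -0.42 to 0.24 for Slc25a4, -0.040 to 0.59 for Slc3a2 and -0.78 to 0.086 for Slc35a4 in siEtv5. They were -0.39 to 0.37 for Slc25a5 and -0.55 to 0.046 for Slc15a4 in siMlx, and -0.24 to 0.67 for Slc25a26, -0.52 to 0.52 for Slc9a3r1, -1.23 to 0.52 for Slc35a5 and -0.21 to 0.62 for Slc15a4 in siRfx1.

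Replicate numbers are shared between groups. Deviations of same-numbered libraries from their group means correlated at -0.11 to 0.27 in the siMlx stage comparison. All 3 pairs were weakly positive in the siRfx1 stage comparison (0.0018 to 0.0129) and in siMlx against siCtrl 2-cell embryos (0.0085 to 0.127). In each of these 2 comparisons 5 of 6 libraries correlated best with their own number, and between 0 and 5 of 6 did so over the comparisons with 3 pairs. The numbers were not taken as pairing in the main tests, and whether they mark pairs was not tested. With the replicate block the stage counts were 86, 95 and 52.

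Depth limits the siRfx1 2-cell libraries most. With 2 or 3 libraries a group, genes near the minimum of 1 FPKM and genes listed at 0 carry the least precise differences.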

Other observations

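A solute carrier gene that the choice left out, Slc30a4, a zinc carrier, was called higher in siRfx1 2-cell embryos than in siCtrl 2-cell embryos. It had 21.6, 12.5 and 21.3 FPKM in siRfx1 2-cell embryos, against 1.17, 0.255 and 0.878 FPKM in siCtrl 2-cell embryos (3.94 ± 0.59 log2, limma adjusted p = 0.0208). Low siCtrl levels left the gene out, and the same siCtrl libraries are compared here, so the choice favours a higher value in siRfx1. Its siCtrl values lay near or below the minimum of 1 FPKM, which it passed through the siRfx1 libraries. It was noticed after the values were seen. Its call was not refitted with a library left out or with siEtv5 as the control.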
